A study of Mus musculus with 4 samples.

Results

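The genes described here encode the proteins of the cytosolic ribosome. They were chosen by name: every probe set whose symbol is Rpl or Rps followed by a number and an optional a, l or x, together with Rplp0, Rplp1 and Rpsa. Kinases of the Rps6k family and pseudogenes with a -ps ending were left out, and no measured value entered the choice. The rule found 62 genes among 25206 probe sets, each probe set standing for 1 gene. Of these, 38 had an Rpl symbol (large subunit) and 24 an Rps symbol or Rpsa (small subunit). RefSeq typed 60 of them as protein coding and 2, Rpl6l and Rps4l, as pseudogenes. RefSeq holds 83 mouse genes with such a symbol, and 21 of them, among them Rpl11, Rplp2, Rps6 and Rps10, were not analysed here.

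RNA from erythroblasts, the nucleated precursors of red blood cells, was measured on 4 Affymetrix arrays. The cells came from mouse fetal livers at stage E14.5 and had been selected on magnetic beads for Ter119, a surface antigen of the red cell lineage. No strain, genotype or number of embryos was given in the labels used here. RNA bound to protein was precipitated either with an antibody against Cpeb4, an RNA-binding protein that recognises cytoplasmic polyadenylation elements in the tails of mRNAs (IP, 2 arrays labelled as biological replicates), or with rabbit IgG (1 array), and total input RNA taken without an antibody was measured on 1 array. All 4 arrays were thus of cells of 1 stage and selection, and the question posed by the design was which mRNAs came down with Cpeb4. The labels do not say whether the control arrays came from the cells of either IP replicate.

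The cytosolic ribosome is built from a large and a small subunit, each a framework of ribosomal RNA clothed with many different proteins that are needed in nearly equal amounts. Most vertebrate ribosomal protein mRNAs begin with a terminal oligopyrimidine (TOP) tract, a cytosine followed by a run of pyrimidines at the 5′ end, through which the mTOR pathway and Larp1 control their translation together. Many of these genes also carry small nucleolar RNAs (snoRNAs) in their introns. Red cell precursors depend heavily on ribosome supply, and heterozygous loss of any of several ribosomal protein genes causes Diamond-Blackfan anaemia, a failure of red cell production.

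To show the tract that these mRNAs are known for, the stretch around the annotated start is given for the 3 tested genes at least 2-fold above both controls in both IP replicates, for the 1 at least 2-fold below both, and for Rpl41, Rps19 and Rplp0, which are described further on. The sequences are from RefSeq, build GRCm38.p6, transcribed strand, 5′ to 3′, with 10 bases before the annotated start and 20 bases from it on. Capitals mark the longest run of C or T that begins with C, has at least 4 further pyrimidines and begins within 10 bases of the start. For Rps19 the first of 3 annotated starts is shown.
Rpl27a, chr7:109519185-109519214, plus strand: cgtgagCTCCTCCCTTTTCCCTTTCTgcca
Rpl23, chr11:97782420-97782449, minus strand: gtccggtcacgtggctgagtgggcggggcc
Rpl15, chr14:18270967-18270996, minus strand: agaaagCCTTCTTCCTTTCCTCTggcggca
Rps27, chr3:90213629-90213658, minus strand: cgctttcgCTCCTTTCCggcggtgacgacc
Rpl41, chr10:128549149-128549178, minus strand: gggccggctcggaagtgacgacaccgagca
Rps19, chr7:24884582-24884611, plus strand: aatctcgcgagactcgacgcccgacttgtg
Rplp0, chr5:115559457-115559486, plus strand: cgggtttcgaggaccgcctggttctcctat
A long run lay at the start of Rpl27a, Rpl15 and Rps27, and no such run was found in the same window of Rpl23, Rpl41, Rplp0 and the first start of Rps19. Matches say only which letters stand in this window of the annotation, which need not be the start used in erythroblasts.

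Some genes have several annotated starts in the RefSeq promoter table, and a gene was counted here if any of them qualified. Among the 44 ribosomal protein genes in it, an annotated start itself was a C followed by at least 4 pyrimidines in 7 (15.9%). The share was 3.01% of the 27025 genes in that table. A run beginning within 10 bases of the start was found in 26 of the 44 (59.1%), against 34.4% of all genes. A run of 8 or more bases was found in 12 (27.3%), against 9.43% of all genes. Of those 12 genes, 10 had a level high enough for testing, and the other 32 genes gave 24 tested genes. These groups are taken up again after the comparisons.

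All values are log2 expression values as deposited, and differences between arrays are on the same log2 scale. Testing needed a mean of at least 3.857 on the 4 arrays (the 40th percentile among named genes), which kept 14244 genes in all and 49 of the 62 ribosomal protein genes. Genes are said to have risen or fallen when they passed limma's moderated test at an adjusted p below 0.05 (Benjamini-Hochberg over the 14244 genes). Since each control was a single array, only the 2 IP arrays gave a spread, and the p-values assume that a control array varies as the IP arrays do. The moderated test also draws on the spread of other genes. Where the 2 IP values of a gene were equal or nearly so, its SE comes almost wholly from other genes. Differences were also counted by size, as at least 2-fold from a control in both IP replicates. The number of arrays limits the precision.

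The IgG array stood apart from the others. Its probe set values had an SD of 1.74, against 2.13 for input and 2.05 and 2.07 for IP replicates 1 and 2, with a median of 4.49 against 4.13 and a 90th percentile of 7.12 against 8.02 in input. For that reason each difference from IgG is read beside the difference from input, which does not use that array. Erythroid identity was plain on all 4 arrays: Alas2 lay between 11.42 and 11.56, Slc4a1 between 11.94 and 12.20 and Hbb-b1 between 11.37 and 11.74. Of the 10 erythroid markers on the array, 4 fell against input (Klf1, Gata1, Hbb-bs and Epb42) and 1 rose, and the log2 of their summed level was 14.35 in input, 14.08 in IgG and 14.21 and 14.25 in the IP replicates. Markers of other fetal liver cells were higher in the IP than in input: 7 of 8 neutrophil markers, 5 of 6 megakaryocyte markers, 4 of 6 tested hepatocyte markers and 5 of 6 tested macrophage markers rose. The log2 of the summed level was 9.54 in input, 10.81 in IgG and 11.41 in both IP replicates for neutrophil markers. It was 9.93, 10.85, 11.69 and 11.80 on the same arrays for megakaryocyte markers, 7.02, 7.91, 9.07 and 9.29 for hepatocyte markers and 7.54, 8.02, 8.68 and 8.90 for macrophage markers. Their part in the values of the ribosomal protein genes was not tested. The IP and IgG arrays are of precipitated RNA, so these differences are not a measure of cell numbers, and their cause was not tested.

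The values of the 62 genes were widely spread, with 2.00 for Rpl32l and 11.33 for Rpl4 in input. Their SD in input was 2.34, against 2.13 for all probe sets. A probe set's level also depends on its probes, so the order of levels among genes is not an order of mRNA abundance. In input, 11 of the 62 lay above the 90th percentile of all probe sets (8.02) and 15 below the median (4.13). The plot of the values on the 4 arrays shows this spread within either subunit.

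**Figure D1:**
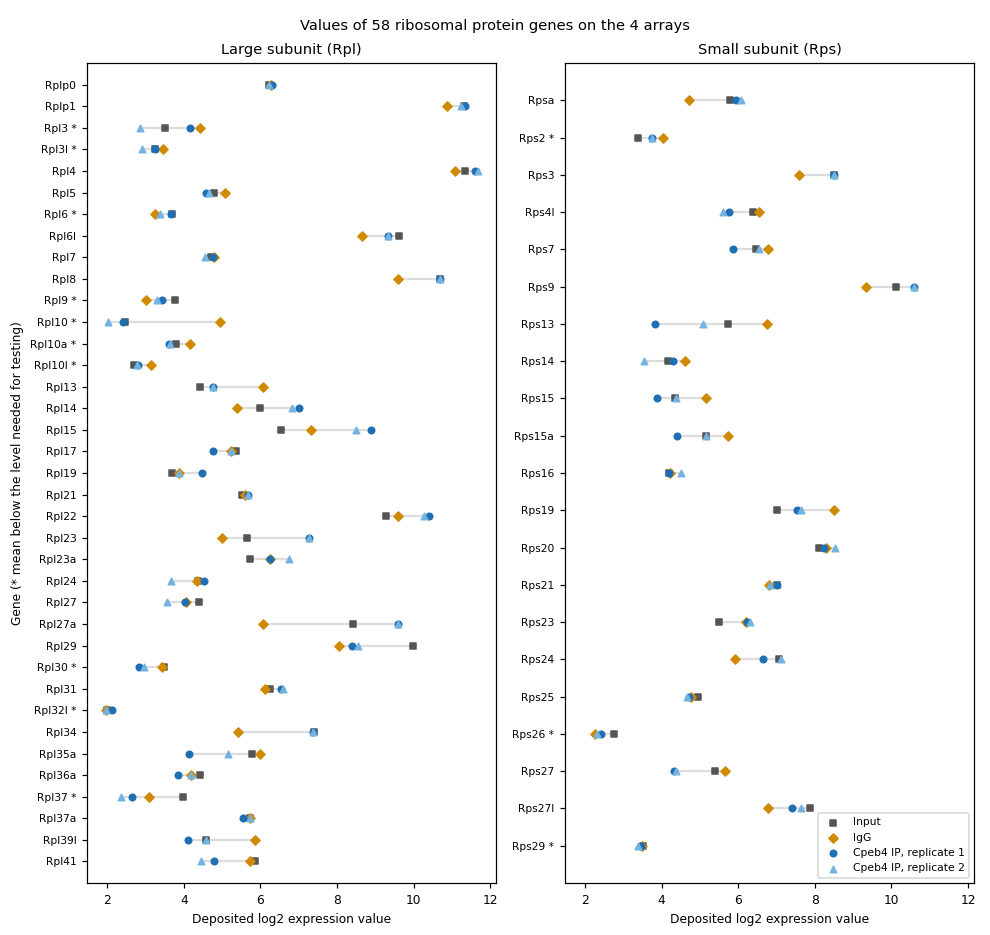
Deposited log2 expression values (x axis) of 37 large subunit genes (left) and 21 small subunit genes (right) named by the array annotation, on the input, IgG and both Cpeb4 IP arrays, ordered by gene number; a star marks the 13 genes whose mean was below the level needed for testing, and grey lines join the lowest and highest array. Values ran from 1.96 (Rpl32l, IP replicate 2) to 11.67 (Rpl4, IP replicate 2).

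Against IgG the ribosomal protein genes moved in both directions, with no common shift. Of the 49 tested, 18 rose (36.7%) and 9 fell (18.4%), next to 36.6% of all tested genes that rose and 21.1% that fell. The median difference was 0.079, against 0.089 over all tested genes, and the lower and upper quartiles were -0.57 and 0.74. At least 2-fold in both replicates, 9 were higher (18.4%, all tested genes 18.8%) and 4 lower (8.16%, all tested genes 6.17%). The shares of calls and of 2-fold differences are close to those of all tested genes, so these counts against IgG are no result about ribosomal proteins. Both IP replicates lay above IgG in 22 genes and below it in 16, and in 11 they did not lie on 1 side. Such sides were not counted over all tested genes.

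Against input fewer genes moved. Of the 49, 7 rose (14.3%, all tested genes 10.4%) and 4 fell (8.16%, all tested genes 16.1%), and the median difference was -0.092, against -0.008 over all tested genes. At least 2-fold in both replicates, 3 were higher (6.12%, all tested genes 4.09%) and 3 lower (6.12%, all tested genes 5.18%). The difference lay within 0.5 of zero for 32 genes, and for 20 against IgG.

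**Figure D2:**
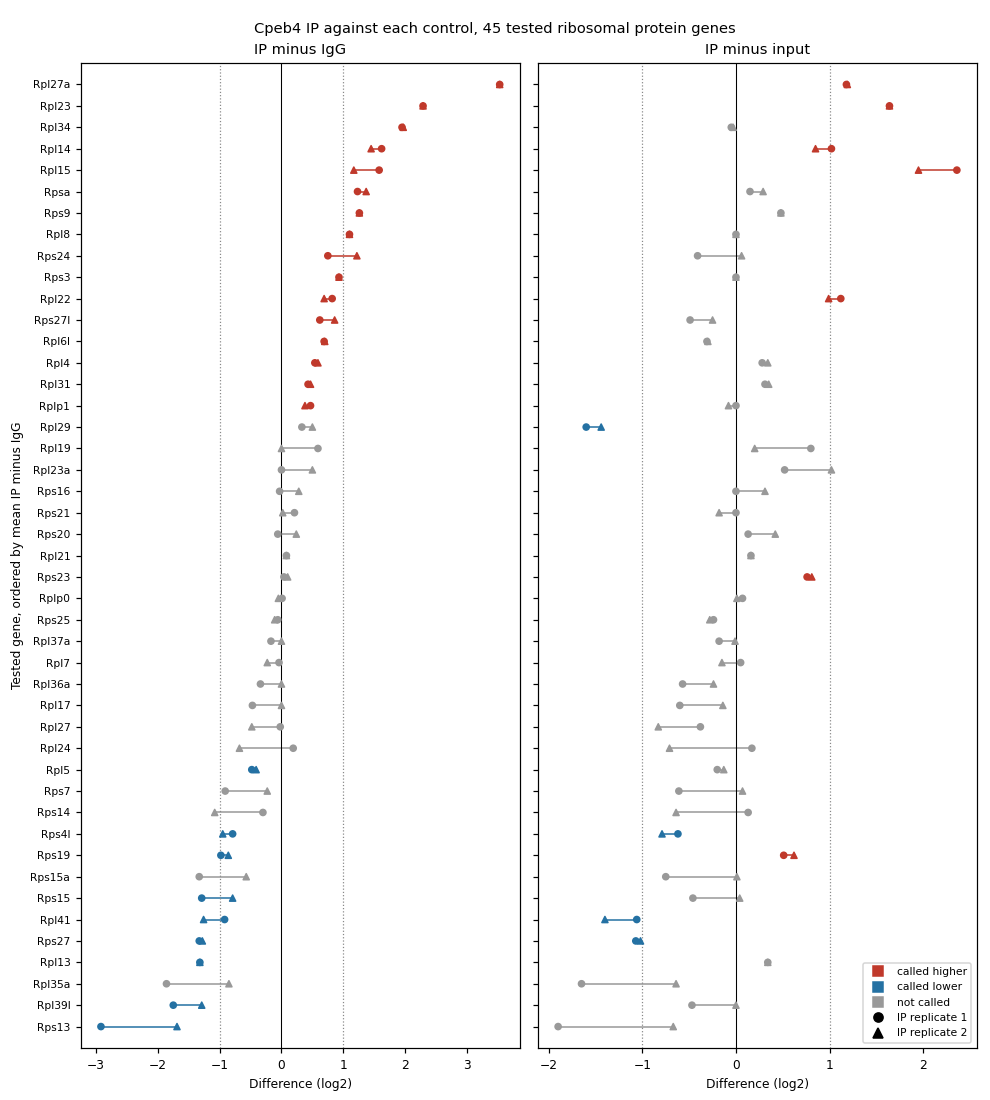
Difference of each IP replicate (circle, replicate 1; triangle, replicate 2) from IgG (left) and from input (right) in log2 units for the 45 tested genes named by the array annotation, ordered by their mean difference from IgG; red marks genes that rose, blue genes that fell and grey genes that did not pass, and dotted lines mark 2-fold. Differences ran from -2.31 (Rps13) to 3.53 (Rpl27a) against IgG and from -1.52 (Rpl29) to 2.15 (Rpl15) against input.

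As deposited, 5 of the 49 genes rose against both controls, next to 1078 of the 14244 tested genes. They were Rpl27a, Rpl23, Rpl14, Rpl15 and Rpl22 of the large subunit, which made up 28 of the 49. The set depended on scaling. Rpl14, Rpl15 and Rpl22 lost at least 1 call after quantile normalization was applied again to the 4 arrays. The small subunit gene Rps9 passed against both controls after that step. After centring each array on its median, Rps9 and Rps23 did so. Of the 5 genes called as deposited, Rpl27a, Rpl23 and Rpl15 were at least 2-fold above both controls in both replicates (6.12% of the 49, against 2.51% of all tested genes). No test set the large against the small subunit.

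Rpl27a (Entrez 26451), a large subunit protein whose partial loss in mice disturbs neurons and skin pigment, had a value of 8.41 in input, 6.06 in IgG and 9.59 in both IP replicates. Both IP values were the highest of the 4 and IgG was the lowest by far. The rise over IgG was 3.53 ± 0.12 (SE), or 11.5-fold (limma adjusted p = 0.00149). The rise over input was 1.18, or 2.27-fold (limma adjusted p = 0.0101). The larger part of the distance from IgG was that IgG lay 5.09-fold below input.

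Rpl23 (Entrez 65019), a large subunit protein that can also bind the p53 regulator Mdm2, stood at 5.64 in input, 4.99 in IgG and 7.28 in both IP replicates. The IP values lay above either control, and the controls were close to each other. The IP was 4.89-fold over IgG, a rise of 2.29 ± 0.12 (SE; limma adjusted p = 0.00149). With equal IP values as printed, this SE reflects the spread of other genes and not that of Rpl23. Relative to input it rose 3.11-fold, or 1.64 (limma adjusted p = 0.00862).

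Rpl15, a large subunit protein and a Diamond-Blackfan anaemia gene, stood at 6.54 in input, 7.32 in IgG, 8.90 in IP replicate 1 and 8.5 in replicate 2. Here IgG lay above input and both IP arrays above IgG. The rise over input was the highest of the 49, 2.15 ± 0.21 (SE), 4.45-fold (limma adjusted p = 0.0100), and that over IgG was 1.38, 2.60-fold (limma adjusted p = 0.00766). After quantile normalization was applied again to the 4 arrays, the difference from IgG shrank to 0.64 (limma adjusted p = 0.154) and that from input was 2.23 (limma adjusted p = 0.0511), so both calls were lost.

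The other 2 genes of this kind were closer to their controls. Rpl14 stood at 5.98 in input, 5.38 in IgG, 7.0 in IP replicate 1 and 6.83 in replicate 2. The rise was 1.53 relative to IgG (limma adjusted p = 0.00243) and 0.93 relative to input (limma adjusted p = 0.0175), the latter call being lost after repeated quantile normalization. Rpl22, which lies at the rim of the exit tunnel and also binds viral and cellular RNAs, stood at 9.29 in input, 9.58 in IgG, 10.41 in IP replicate 1 and 10.28 in replicate 2. Its rise was 0.76 relative to IgG (limma adjusted p = 0.0105) and 1.06 relative to input (limma adjusted p = 0.0129), and repeated quantile normalization left 0.41 over IgG without a call.

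The genes that fell against both controls were Rps27, Rpl41 and Rps4l (3 of the 49, next to 322 of the 14244 tested genes). Rps27, a zinc-finger protein of the small subunit and a Diamond-Blackfan anaemia gene, stood at 5.40 in input, 5.66 in IgG and 4.33 and 4.38 in IP replicates 1 and 2. The controls lay together and both IP arrays more than 1 unit under them. It fell by 1.31 ± 0.12 (SE) against IgG, being 2.48-fold lower (limma adjusted p = 0.00246), and by 1.04 against input, 2.06-fold lower (limma adjusted p = 0.0117). It was the 1 tested member at least 2-fold below both controls in both replicates (2.04%, all tested genes 0.498%).

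Rpl41, which encodes the shortest protein of the large subunit, stood at 5.86 in input, 5.72 in IgG and 4.80 and 4.46 in IP replicates 1 and 2. It fell by 1.09 against IgG (limma adjusted p = 0.0103) and by 1.23 against input (limma adjusted p = 0.0182). The call against input was lost after repeated quantile normalization. Rps4l, which RefSeq types as a transcribed pseudogene, stood at 6.38 in input, 6.54 in IgG and 5.76 and 5.59 in the IP, and fell by 0.87 and by 0.71 (limma adjusted p = 0.00843 and 0.0308), again with the call against input lost after that step.

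**Figure D3:**
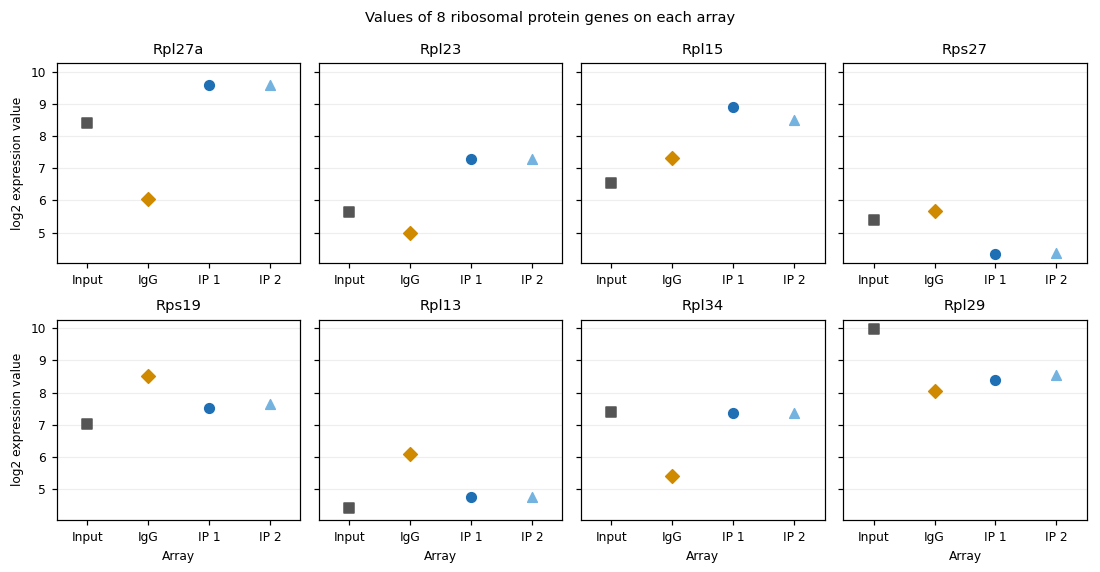
Deposited log2 values (y axis) of 8 ribosomal protein genes on the input, IgG and both IP arrays (x axis), 1 symbol per array. Rpl27a, Rpl23 and Rpl15 were highest in the IP, Rps27 was lowest in the IP, Rps19 and Rpl13 were highest in IgG, Rpl34 was level between input and IP with a low IgG value, and Rpl29 was highest in input.

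Many genes were called against IgG and not against input. Of the 18 that rose over IgG, 13 were not called against input (72.2%, all tested genes that rose 61.2%), and of the 9 that fell, 5 were not (55.6%, all tested genes that fell 86.8%). In 3 examples, input and IP lay close together and IgG lower. Rpl34, a large subunit protein, had 7.40 in input, 7.36 and 7.38 in the IP and 5.41 in IgG: it rose by 1.96 over IgG (limma adjusted p = 0.00155) and differed by -0.04 from input (limma adjusted p = 0.941). Rpl8, near the peptidyl transferase centre, had 10.68 in input and in both IP replicates and 9.58 in IgG. Rps3, at the mRNA entry channel, had 8.51 in input and in both IP replicates and 7.58 in IgG. They rose over IgG by 1.10 and 0.93 (limma adjusted p = 0.00334 and 0.00486). Repeated quantile normalization brought the difference of Rps3 to 0.20 (limma adjusted p = 0.0609).

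Rpsa, also known as the laminin receptor, and Rps9, a small subunit protein near the decoding site, rose over IgG by 1.3 and 1.26 (limma adjusted p = 0.003 and 0.00253). Their differences from input were 0.22 and 0.48 (limma adjusted p = 0.334 and 0.0516). For Rps9 the difference from input passed after either rescaling. It was 0.62 after repeated quantile normalization and 0.45 after centring (limma adjusted p = 0.037 and 0.0308). Rpsa did not pass against input after either rescaling.

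Rps13, a platform protein of the small subunit, was the lowest of the 49 against IgG. It stood at 5.74 in input, 6.76 in IgG, 3.83 in IP replicate 1 and 5.07 in replicate 2. Both IP values were below both controls, but they were 1.23 apart. It fell by 2.31 ± 0.54 (SE) against IgG (limma adjusted p = 0.0249), a call lost after repeated quantile normalization and after centring each array on its median, and differed from input by -1.29 (limma adjusted p = 0.176). Rpl13, of the large subunit, stood at 4.43 in input, 6.08 in IgG and 4.76 in both IP replicates: it fell by 1.32 against IgG (limma adjusted p = 0.00237), with a difference of 0.34 from input (limma adjusted p = 0.116). Rps15, a small subunit protein close to the decoding site, stood at 4.34, 5.17, 3.88 and 4.38 on the same arrays in that order and fell by 1.04 against IgG (limma adjusted p = 0.0245), which neither rescaling kept.

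Rps19, the gene most often mutated in Diamond-Blackfan anaemia, fell against IgG and rose against input. Its value was 7.02 in input, 8.51 in IgG and 7.53 and 7.64 in the IP, between the controls. It fell by 0.92 ± 0.13 (SE) against IgG (limma adjusted p = 0.00603) and rose by 0.56 over input (limma adjusted p = 0.0435). Among all tested genes 73 had such a pair of calls.

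As deposited, Rpl29 and Rps23 were called against input and not against IgG. Rpl29, a heparin-binding protein of the large subunit that mice can live without, stood at 9.98 in input, 8.04 in IgG and 8.38 and 8.54 in the IP. It fell by 1.52 against input, 2.86-fold (limma adjusted p = 0.00956), and the IP and IgG arrays lay together, with a difference of 0.42 (limma adjusted p = 0.0607). Rps23, which contacts the decoding centre, stood at 5.49 in input, 6.20 in IgG and 6.24 and 6.30 in the IP. It rose by 0.79 over input (limma adjusted p = 0.0185), and its difference from IgG was 0.07 (limma adjusted p = 0.672). Against IgG the scaling decided these genes: after centring, Rpl29 lay 0.74 and Rps23 0.40 higher (limma adjusted p = 0.0114 and 0.021), and after repeated quantile normalization Rps23 was at -0.48 (limma adjusted p = 0.0189) and Rpl29 at -0.26 (limma adjusted p = 0.137).

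The controls, being single arrays, were set against each other by size with no test. In IgG 4 of the 49 genes were at least 2-fold above input (8.16%, all tested genes 7.83%), namely Rpl13, Rps19, Rpl39l and Rps13, by 3.15-, 2.80-, 2.44- and 2.03-fold. At least 2-fold below input were 8 (16.3%, all tested genes 24.0%). Among these were Rpl27a, Rpl34 and Rpl29, by 5.09-, 3.98- and 3.82-fold, and Rps24, Rps27l, Rpl8 and Rpsa, by 2.23-, 2.15-, 2.14- and 2.11-fold. The median difference was -0.022, against -0.157 over all tested genes.

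By subunit, 11 of 28 tested large subunit genes rose and 4 fell against IgG, and 5 rose and 2 fell against input, with medians of 0.16 and -0.04. Of 21 tested small subunit genes, 7 rose and 5 fell against IgG and 2 rose and 2 fell against input, with medians of 0.07 and -0.21. Over all tested genes 36.6% rose and 21.1% fell against IgG, and 10.4% rose and 16.1% fell against input, with medians of 0.09 and -0.01. The counts of the lists below are to be read beside these shares.

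The P stalk, the flexible arm of the large subunit that recruits translation factors, was represented by its base Rplp0 and its arm protein Rplp1. Rplp0 was nearly level, with 6.22 in input, 6.28 in IgG and 6.29 and 6.23 in the IP (difference from IgG -0.02, limma adjusted p = 0.93). Its difference from IgG was 0.31 after centring and -0.59 after repeated quantile normalization (limma adjusted p = 0.0434 and 0.0217). Rplp1 stood at 11.32 in input, 10.86 in IgG and 11.33 and 11.24 in the IP and rose over IgG by 0.42 (limma adjusted p = 0.0438). Rpl5, which with Rpl11 escorts the smallest ribosomal RNA of the large subunit and can restrain Mdm2, stood at 4.79 in input, 5.07 in IgG and 4.59 and 4.66 in the IP. It fell by 0.44 against IgG (limma adjusted p = 0.038), a call lost after centring.

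Of 6 tested proteins at the exit tunnel and its rim, 3 rose over IgG, Rpl22, Rpl4 and Rpl31, and Rpl22 rose over input. Their medians were 0.37 against IgG and 0.41 against input. Rpl4, which reaches into the tunnel wall, stood at 11.33 in input, 11.08 in IgG and 11.61 and 11.67 in the IP and rose over IgG by 0.57 (limma adjusted p = 0.0186). Rpl31 rose by 0.45 (limma adjusted p = 0.0344), but repeated quantile normalization turned its difference to -0.10.

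Of 4 tested proteins on the mRNA entry and decoding side of the small subunit, Rps9 and Rps3 rose and Rps15 fell against IgG, and Rps23 rose against input, with medians of 0.5 and 0.24. On the exit side and platform, 2 of 4 tested, Rpsa among them, rose over IgG, with medians of 0.06 and -0.02. The platform proteins Rps7 and Rps14 had differences of -0.57 and -0.69 (limma adjusted p = 0.199 and 0.168), with IP replicates of 5.86 and 6.54 for Rps7 and 4.30 and 3.53 for Rps14.

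Of 19 genes linked to Diamond-Blackfan anaemia, 12 were on the array and 10 were tested. Against IgG 3 rose (Rpl15, Rpl31 and Rps24) and 3 fell (Rpl5, Rps19 and Rps27), and the median was -0.5. Against input Rpl15 and Rps19 rose and Rps27 fell, with a median of -0.22. Rps24, a small subunit protein, stood at 7.06 in input, 5.91 in IgG and 6.65 and 7.12 in the IP and rose over IgG by 0.98 (limma adjusted p = 0.0254). After repeated quantile normalization the 3 rises over IgG lost their calls.

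The remaining Diamond-Blackfan anaemia genes gave no call. Rpl35a stood at 5.79 in input, 6.0 in IgG and 4.13 and 5.15 in the IP, with both IP values under both controls but 1.01 apart (differences -1.36 and -1.15, limma adjusted p = 0.0623 and 0.152). Rps15a stood at 5.15, 5.73, 4.41 and 5.16 on input, IgG and IP replicates 1 and 2, with a difference of -0.95 from IgG (limma adjusted p = 0.0781). Rpl27 lay at -0.25 relative to IgG and at -0.61 relative to input (limma adjusted p = 0.418 and 0.139). Rps26 and Rps29 were below the level for testing, between 2.25 and 2.76 and between 3.37 and 3.52.

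Members of the paralog list, some of which stand in for a common ribosomal protein in some tissues or states, moved in different directions. Of 4 tested, 1 rose and 2 fell against IgG and 1, Rps4l, fell against input. Rps27l, a copy of Rps27 that responds to p53, stood at 7.88 in input, 6.78 in IgG and 7.39 and 7.63 in the IP. Its rise over IgG was 0.74 (limma adjusted p = 0.0188), which repeated quantile normalization brought to 0.03, whereas Rps27 fell against both controls. Rpl39l, a copy of Rpl39 known from testis, stood at 4.57 in input, 5.85 in IgG and 4.10 and 4.57 in the IP and fell by 1.52 against IgG (limma adjusted p = 0.00777), with -0.23 from input (limma adjusted p = 0.6). Rpl36a lay at -0.17 relative to IgG and at -0.41 relative to input (limma adjusted p = 0.5 and 0.206). Rpl3l, a copy of Rpl3 known from muscle, and Rpl10l, a copy of Rpl10 known from testis, were below the level for testing, between 2.91 and 3.45 and between 2.71 and 3.14. Signals of copies cannot be separated where probes match both, so the values of paralogs are uncertain to that extent.

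Rpl6l, which RefSeq types as a pseudogene, stood at 9.63 in input, 8.64 in IgG and 9.33 and 9.34 in the IP and rose over IgG by 0.69 (limma adjusted p = 0.0101), a call lost after repeated quantile normalization. The 20 tested genes called against neither control had differences from -1.36 (Rpl35a) to 0.3 (Rpl19) against IgG and from -1.15 (Rpl35a) to 0.77 (Rpl23a) against input. Besides those described by role, they include Rpl7, Rpl17, Rpl21, Rpl24 and Rpl37a of the large subunit and Rps16, Rps20, Rps21, Rps25 and Rps27a of the small subunit. Rps27a, made as a fusion with ubiquitin, lay at -0.62 relative to IgG and at -0.31 relative to input (limma adjusted p = 0.449 and 0.836).

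The 13 genes below the level for testing were Rpl9, Rpl6, Rps26, Rpl32l, Rps29, Rps2, Rpl10l, Rpl3l, Rpl10a, Rpl30, Rpl37, Rpl3 and Rpl10. Their differences from IgG ran from -2.74 to 0.37. Rpl10, which completes the large subunit late in its assembly, stood at 2.46 in input, 4.95 in IgG and 2.40 and 2.02 in the IP, so that IgG alone was high. Rpl37 stood at 3.98 in input, 3.08 in IgG and 2.65 and 2.37 in the IP. Rpl3, which lines the peptidyl transferase centre, had 3.5 in input, 4.43 in IgG and IP replicates of 4.17 and 2.85.

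The IP replicates differed from each other by at least 0.5 in 9 of the 49 genes (18.4%), against 4.02% of all tested genes. Replicate 1 was the higher in Rps27a (4.43 and 3.03), Rpl24 (4.54 and 3.66), Rps14 and Rpl19 (4.47 and 3.88). Replicate 2 was the higher in the others, among them Rps13, Rpl35a, Rps15a and Rps7. In 5 other tested members the replicates were tied within 1e-09. The smallest differences that passed the test over all genes were 0.39 against IgG and 0.49 against input.

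Genes grouped by the pyrimidine run at their start differed in their medians. Of the 10 tested genes with a run of 8 or more bases near the start, 6 rose and 1 fell against IgG and 3 rose and 1 fell against input, with medians of 1.12 and 0.22. Of the 24 without such a run, 7 rose and 7 fell against IgG and 4 rose and 1 fell against input, with medians of -0.08 and -0.09. For the stricter form, in which an annotated start itself is the C, the 6 tested genes had medians of -0.42 and -0.23. Among them 2 rose and 1 fell against either control. The 28 tested genes without it had medians of 0.02 and -0.02. The direction thus depended on how the run was defined, and no test was made between these groups. Rpl27a and Rpl15, both high in the IP, and Rps27, low in the IP, carry the long run printed above.

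The snoRNAs that lie within these genes gave values opposite to several of their hosts. RefSeq places 39 snoRNA genes inside 21 of the 62 ribosomal protein genes, and 20 of them, in 15 hosts, were on the array. All 20 were lower in the IP than in IgG, by differences from -0.23 to -4.93 with a median of -2.09. Of the 17 tested, 16 fell against IgG and Snord4a did not pass, next to 21.1% of all tested genes that fell. Differences from input were smaller for most, from -2.31 (Snord14a) to 0.22 (Snora3), and negative for all but Snora3. Against input, Snora3, Snora21, Snora64, Snora68, Snord16a, Snord42a and Snord68 did not pass. The other tested snoRNA genes, Snord4a among them, fell against input, next to 16.1% of all tested genes. In IgG 15 of the 20 were higher than in input, 10 of them at least 2-fold, with a median of 1.08. Among all tested genes 7.83% were at least 2-fold higher in IgG than in input. Other snoRNA genes were not examined here, so the fall is not shown to be particular to those within ribosomal protein genes.

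Within Rpl27a, Snora3 stood at 7.57 in input, 10.01 in IgG and 7.69 and 7.87 in the IP. It was 2.44 above input in IgG, where its host was 2.35 below. Within Rpl23, Snora21 stood at 9.67 in input, 12.12 in IgG and 9.47 and 9.34 in the IP and fell by 2.72 against IgG, where its host rose by 2.29. Within Rps3, Snord15b and Snord15a fell by 4.49 and 3.99 and the host rose by 0.93. Within Rpl13, Snord68 fell by 4.93 and the host fell too. Small RNAs of this kind lack the poly(A) tail of mRNAs, and the RefSeq table used here gives no strand, so these are genes within the host's span.

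**Figure D4:**
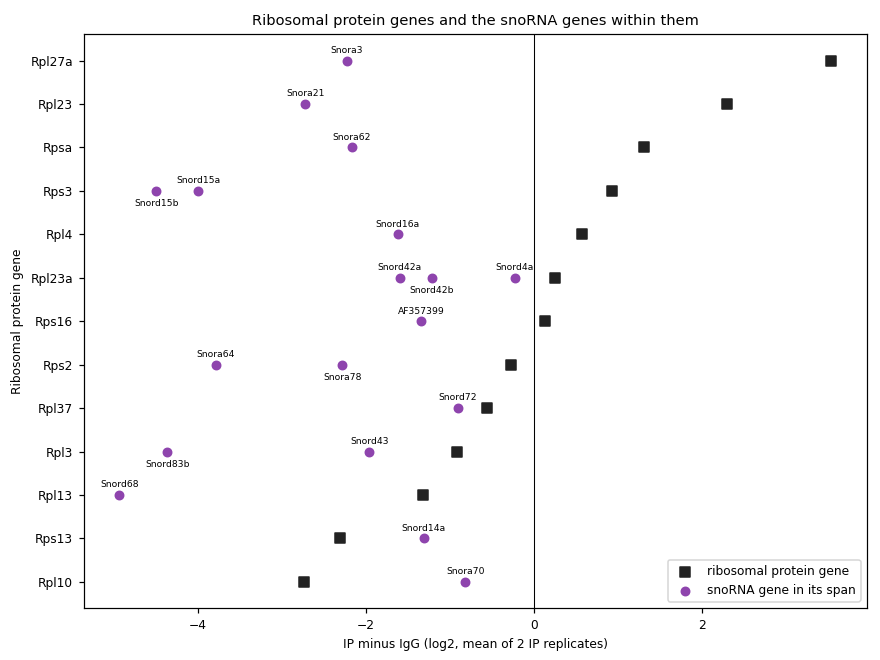
Mean IP minus IgG difference (log2, x axis) of 13 ribosomal protein genes named by the array annotation (squares, 1 per row) and of the 18 snoRNA genes within their spans (circles, named). Every circle lies left of zero, between -4.93 (Snord68) and -0.23 (Snord4a), whereas the squares lie on both sides.

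The hosts were counted in the same way. Of the 15 tested genes with a snoRNA in their span, 6 rose and 3 fell against IgG and 2 rose against input, with medians of 0.13 and 0.16. Of the other 34 tested genes, 12 rose and 6 fell against IgG and 5 rose and 4 fell against input, with medians of -0.05 and -0.19. No test was made between them.

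A list of ribosomal protein genes named outside the Rpl and Rps pattern was as mixed. It also holds Rps4l, which fits the pattern and is among the 62. Of 6 tested, Rack1, a scaffold on the small subunit, and Rpl36al rose over IgG by 0.86 and 1.36, and Fau, Rps3a1 and Rps4l fell, Rps3a1 by 1.92 and Fau, which yields a small subunit protein fused to a ubiquitin-like one, by 0.53 (limma adjusted p between 0.00176 and 0.0217 for these 5 genes). Against input Rack1 rose by 0.53 and Fau fell by 0.85 (limma adjusted p = 0.0435 and 0.0156). The list's medians, Rps4l included, were -0.21 and -0.37.

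Other transcripts known to begin with the TOP tract, among them those of elongation factors, had medians above those of the 49 tested ribosomal protein genes. Rack1 and Fau are in this list as well as in the preceding one. Of 14 tested, 8 rose and 3 fell against IgG, and 6 rose and 3 fell against input, with medians of 0.64 and 0.24. Among all tested genes 36.6% rose and 21.1% fell against IgG, and 10.4% rose and 16.1% fell against input. The list's median level in input was 7.54, against 5.8 for all tested genes, and the part of level in these counts was not tested. Eef1a1, the main elongation factor that brings tRNA to the ribosome, was at 6.58 in input, 3.78 in IgG and 6.81 and 6.92 in the IP and rose over IgG by 3.08 (limma adjusted p = 0.00149), with 0.28 from input (limma adjusted p = 0.202). Npm1, the nucleolar protein nucleophosmin, rose over input by 1.76 and Pabpc1, the cytoplasmic poly(A)-binding protein, by 1.02 (limma adjusted p = 0.0101 and 0.0122). Btf3 and the snoRNA host Gas5 fell against IgG by 1.95 and 1.15 (limma adjusted p = 0.0275 and 0.00409).

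Of 17 regulators of TOP mRNA translation, 10 rose and 1 fell against IgG, and 1 rose and 5 fell against input. The medians were 0.56 and -0.12, next to 0.09 and -0.01 over all tested genes. The list's median level in input was 8.07, against 5.8 for all tested genes. With the level filter at the 60th percentile, 5123 of 9496 genes rose over IgG, with a median of 0.482. The part of level in the list's counts was not tested. The shares over all tested genes were 36.6% higher and 21.1% lower against IgG, and 10.4% and 16.1% against input. Repeated quantile normalization gave 5 calls higher and 6 lower than IgG. Larp1, which binds the TOP tract, differed by 0.30 from IgG and 0.14 from input (limma adjusted p = 0.118 and 0.587), and Mtor rose over IgG by 0.67 (limma adjusted p = 0.0119). Eif4ebp2, an inhibitor of cap-dependent initiation, rose over input by 1.29 (limma adjusted p = 0.00981), and the kinase Rps6kb2 fell by 1.08 (limma adjusted p = 0.0109). Repeated quantile normalization turned the difference of Mtor from IgG to -0.07.

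Of 16 genes for chaperones, nuclear import and surveillance of ribosomal proteins, 10 rose and 1 fell against IgG and 1 rose and 3 fell against input, with medians of 0.86 and -0.03. All tested genes had shares of 36.6% and 21.1% against IgG and 10.4% and 16.1% against input, with medians of 0.09 and -0.01. This list too had a high median level in input, 7.5 against 5.8 for all tested genes. Among genes kept by the 60th percentile filter the median difference from IgG was 0.482. The part of level was not tested. Repeated quantile normalization gave 7 calls higher and 3 lower than IgG. Bccip and the importin Ipo9 rose over IgG by 1.86 and 1.81 (limma adjusted p = 0.00238 and 0.00239), and Ipo7 rose over input by 0.61 (limma adjusted p = 0.0446). Mdm2, which ribosomal proteins can bind, fell by 1.03 against IgG (limma adjusted p = 0.00603), and Pdcd2l fell by 1.09 against input (limma adjusted p = 0.0132).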

How the data were processed

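Log2 expression values were used as deposited by the authors, 1 per probe set and array. RMA and affy are named in the submitters' processing notes, without version, settings or genome build. RMA usually equalises probe distributions and summarises probes by median polish, which can give tied values on different arrays. Probe sets carry Entrez numbers. The array annotation named 23185 of them, and RefSeq named 555 of the other 2021 by Entrez number. Of the 62 members, 4 were named that way. They are in the counts but not in the figures, and values of some genes are not reported here.

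Differences were fitted with limma 3.58.1 in R 4.3.3 (lmFit, 3 groups, 1 residual degree of freedom). The IP replicates had tied values in 3111 of the tested genes, so the prior spread (3.11 degrees of freedom, SD 0.11) was estimated from the untied genes. The test was checked on simulated data. At an unadjusted p below 0.05, 8944 genes differed from IgG and 5459 from input. P-values measure only the spread between the IP samples, that of the gene itself and, through the prior, that of other genes. For tied genes the prior alone gave it.

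Members, lists, tests and alternatives were chosen with earlier results of these data known. Genes were named by rule: for each comparison the 6 highest and 6 lowest members, all members of the stalk, paralog and anaemia lists, members 2-fold from both controls, untested members, and the 2 highest and 2 lowest of other lists. Further members and genes were chosen after their values were seen. Alternatives were other scalings, level filters, priors, thresholds and each IP replicate left out.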

Additional observations from a re-analysis of the deposited data

How the results depend on the processing

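The counts and medians below are of members, in the order IP minus IgG, IP minus input and IgG minus input. Quantile normalization again gave 10 calls higher than IgG and 2 lower than input, 8 genes at least 2-fold below IgG and 1 below input, 9 above and 5 below input in IgG, and medians of 0.002, -0.022 and -0.061. Over all tested genes it gave 4464 calls higher and 4161 lower than IgG, and 1446 lower than input. At least 2-fold, 1319 of all tested genes were below IgG and 482 below input. In IgG 1554 of them were above and 1988 below input, and the medians were 0.03, -0.023 and -0.025. Centring each array gave 14 genes at least 2-fold above IgG and 1 below, 2 above input in IgG, and medians of 0.405, -0.124 and -0.381. It moved the median of all tested genes from 0.089 to 0.414, with 8088 calls higher and 1967 lower than IgG. Their other medians were -0.04 and -0.516. At least 2-fold, 3925 of all tested genes were above IgG and 444 below, and 515 were above input in IgG. Without a level filter the medians were -0.042, -0.133 and -0.026, next to -0.075, 0 and 0.109 over all named genes. A 60th percentile filter gave 0.333, -0.001 and -0.139, next to 0.482, -0.054 and -0.62 over all genes it kept. The usual eBayes prior called 2 members lower than IgG and 2 lower than input, next to 2432 and 1902 of all tested genes. A prior with trend called 11 members higher than input, next to 1791 of all tested genes. A common spread called 13 members higher and 11 lower than input, next to 2121 and 3188 of all tested genes. At 1.5-fold, 15 members were above and 9 below IgG, 6 above and 7 below input, and 7 above and 13 below input in IgG. In the same order, all tested genes gave 4299 and 2201, 1266 and 1961, and 2667 and 5185. At 4-fold the members gave 2 and 0, 0 and 0, and 0 and 2. All tested genes gave 587 and 122, 106 and 42, and 145 and 760 at 4-fold. Without one IP replicate, 7 members were at least 2-fold below IgG with either left out, at most 5 above and 6 below input (without replicate 2), and the medians were 0.025 to 0.042 against IgG and 0 against input. Those settings leave no residual degree of freedom and gave no test. Chosen after seeing the data, annotation names alone gave medians of -0.051 against input and -0.01 for IgG minus input, and leaving out RefSeq pseudogenes -0.051 against input. Causes of these changes were not tested. No paired analysis was possible because no replicate number joins a control array to an IP array. Both controls were single arrays, and the spread rests on 1 pair of IP arrays.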

Other observations

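Pseudogenes of ribosomal proteins with a -ps ending, a list added after the data were seen, were on the array with 19 probe sets, 9 of them tested. Against IgG 5 rose and 1 fell, and against input 2 rose and 1 fell, with medians of 1.31 and 0.11. Over all tested genes 36.6% rose and 21.1% fell against IgG. Against input 10.4% rose and 16.1% fell, and the medians were 0.09 and -0.01. Rps15a-ps5 stood at 6.65 in input, 5.61 in IgG and 8.80 and 8.86 in the IP and rose over IgG by 3.22 and over input by 2.18 (limma adjusted p = 0.00149 and 0.00862), whereas Rps15a differed from them by -0.95 and -0.37 and passed neither test. Rps19-ps3 rose over IgG by 2.02 (limma adjusted p = 0.00283), where Rps19 fell by 0.92. Rpl34-ps2 rose over IgG by 1.54 and over input by 1.04 (limma adjusted p = 0.00195 and 0.0118), and its parent Rpl34 rose over IgG alone. Probes of near-identical copies can bind one another's transcripts, so which copy these values come from is uncertain.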
